A study of Homo sapiens with 3 samples.

Results

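The edges of unmethylated CpG-dense stretches were described in Hep3B cells, a human hepatocellular carcinoma line, and in 2 lines made from it by CRISPR/Cas9 knockout of SOX4, a transcription factor of the SOX family. The knockout lines had been made before the present study. The comparison asks whether loss of SOX4 goes with a change of DNA methylation. One library came from parental cells (titled Hep3B-gDNA) and 1 from each knockout line (Hep3B SOX4 KO #1 and Hep3B SOX4 KO #2, called KO #1 and KO #2 here). All 3 libraries were bisulfite-treated after capture of CpGs with the TruSeq Methyl Capture EPIC probes. The study's methods give puromycin, a selection drug, in the culture medium of the knockout cells and state none for the parental cells, so drug and genotype cannot be told apart here. No time point is given for any group, each knockout line has 1 library, and whether a line grew from a single clone is not given. The data hold methylation and no expression, so neither the loss of SOX4 nor the liver origin of the cells was checked here.

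A core was a fixed window of 1 kb on an autosome with 40 or more CpGs read at least 10 times in all 3 libraries, and with a mean methylation level over the 3 libraries below 10%. An edge window had 5 to 39 such CpGs and lay 1 or 2 windows from a core. The border of a core is thus a line of the fixed grid and not a measured border. This gave 7579 edge windows of 318599 autosomal windows with a compared CpG, 5984 of them 1 window and 1595 of them 2 windows from a core. They held 126106 CpGs. The 7016 core windows formed 6283 runs of adjoining cores, of which 5609 were 1 window long, 624 were 2 windows long and the longest was 6 windows. Cores were chosen by their methylation level in these libraries, so the low level of the cores is not a result. The edge windows were chosen by position and CpG number, and their own level was not used. Another 93680 windows of 5 to 39 CpGs lay farther from a core and are called other windows.

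Most CpGs of the human genome are methylated, and CpG-dense stretches, called CpG islands, are the main exception. Islands often hold the start of a gene and stay unmethylated in most cell types whether or not the gene is active. Their flanks, called shores, are where the level climbs to that of the surrounding DNA, and shores are known to differ between tissues and between tumour and normal cells more often than the islands do. Proteins that bind unmethylated CpGs and enzymes that add or remove methyl groups act on both sides of this border. Methylation is read from bisulfite treatment, which converts unmethylated cytosine and leaves methylated cytosine as it was.

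Sequences upstream of 5 gene starts are given because the results below turn on the edge windows beside them. Each shows the 250 bases before the start in RefSeq (GRCh38.p14), 5′ to 3′ on the strand of the gene, with every CG in capitals. The coordinates are those of the CpGs in the files (GRCh37) onto which the spacing of the CGs was matched. JAG1 encodes a Notch ligand and its start lies in a core (chr20:10654648-10654897, reverse strand). LSM12 encodes a protein of the LSm family and its start lies in an edge window (chr17:42144040-42144289, reverse strand). TUBB encodes a beta-tubulin, and its placed starts at chr6:30688129 and chr6:30689415 both lie in a core. The sequence shown is that before the first of them (chr6:30687879-30688128, forward strand). The other start is the nearest one to the downstream window of TUBB described below. STPG1 has its start in an edge window (chr1:24741535-24741784, reverse strand). CYP1A1 encodes a cytochrome P450 that oxidises aromatic hydrocarbons, and its start lies in an edge window (chr15:75017870-75018119, reverse strand).
JAG1: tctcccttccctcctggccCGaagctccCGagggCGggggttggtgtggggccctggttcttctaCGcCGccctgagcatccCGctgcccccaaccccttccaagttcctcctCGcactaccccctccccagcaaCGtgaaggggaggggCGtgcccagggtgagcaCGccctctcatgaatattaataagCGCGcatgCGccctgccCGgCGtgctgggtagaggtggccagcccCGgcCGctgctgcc
LSM12: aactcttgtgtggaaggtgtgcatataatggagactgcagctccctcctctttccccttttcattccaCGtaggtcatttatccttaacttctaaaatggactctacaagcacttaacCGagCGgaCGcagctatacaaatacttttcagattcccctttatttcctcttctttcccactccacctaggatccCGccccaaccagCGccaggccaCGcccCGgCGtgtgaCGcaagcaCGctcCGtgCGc
TUBB: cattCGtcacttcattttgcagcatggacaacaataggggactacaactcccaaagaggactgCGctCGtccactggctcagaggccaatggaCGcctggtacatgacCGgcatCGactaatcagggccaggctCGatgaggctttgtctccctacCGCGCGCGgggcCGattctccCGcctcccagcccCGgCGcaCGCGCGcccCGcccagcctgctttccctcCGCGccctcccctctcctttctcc
STPG1: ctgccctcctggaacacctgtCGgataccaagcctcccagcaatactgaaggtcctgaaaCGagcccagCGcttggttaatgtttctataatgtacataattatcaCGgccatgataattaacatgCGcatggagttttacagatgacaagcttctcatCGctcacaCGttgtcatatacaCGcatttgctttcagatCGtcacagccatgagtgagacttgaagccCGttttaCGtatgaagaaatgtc
CYP1A1: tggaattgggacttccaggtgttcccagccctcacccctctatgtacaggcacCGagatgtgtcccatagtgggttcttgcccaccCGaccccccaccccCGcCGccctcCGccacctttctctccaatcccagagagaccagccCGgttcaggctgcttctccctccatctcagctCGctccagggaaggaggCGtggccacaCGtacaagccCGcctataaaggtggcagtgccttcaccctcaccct

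The 250 bases held 17 CGs upstream of JAG1, 13 upstream of LSM12, 21 upstream of TUBB, 11 upstream of STPG1 and 10 upstream of CYP1A1. Over 35116 RefSeq promoters the median was 11, and 32.4% held 20 or more. Of the 17 CpGs before JAG1, 15 were compared and averaged 0% in parental cells and KO #1 and 0.333% in KO #2. The 21 before TUBB averaged 0.276%, 0.625% and 0.489%. The 13 CpGs before the LSM12 start averaged 0.209% in parental cells, 0.208% in KO #1 and 0.164% in KO #2. The 11 CpGs before the STPG1 start averaged 69.5%, 57.6% and 66.9% in the same order, although both starts lay in an edge window 1 kb wide next to a core. The 10 CpGs before CYP1A1 averaged 3.09%, 3.16% and 4.54%. This stretch runs across the border into the core, which begins at chr15:75018001 and was chosen for its low level. The 5 CpGs of it in the edge window averaged 5.17%, 4.25% and 7.93%. The starts of LSM12 and STPG1 show that starts in edge windows could be almost free of methylation or mostly methylated. The 3 libraries were close to each other before LSM12 and CYP1A1, while before STPG1 KO #1 lay below parental cells and KO #2.

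The files held 104702738 CpG reads for the parental library, 96987706 for KO #1 and 133170621 for KO #2. Over the CpGs of the edge windows the median depth was 34 reads in parental cells, 30 in KO #1 and 42 in KO #2. Depth was lower farther out, from a median of 37 reads in parental cores to 34 at 1 window and 31 at 2 windows, and its part in the levels was not tested. The 95% intervals below are by the exact Clopper-Pearson method. They take in counting error alone, because reads made by PCR are not independent molecules. The parental group has 1 library, and an exact permutation test of 1 library against 2 cannot give a p below 0.333. No p-value for the knockout is therefore given, and the difference between KO #1 and KO #2 stands as the measure of spread. An intermediate level in a library can come from a share of the cells, from 1 allele or from single CpGs within each molecule, and these cannot be told apart here.

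The level was higher at each window outward from the core up to the fourth, in every library. Cores averaged 1.81% in parental cells, 1.55% in KO #1 and 1.59% in KO #2. Edge windows 1 window away averaged 16.9% in parental cells, 15.3% in KO #1 and 16.2% in KO #2. At 2 windows the means were 54.2%, 52.5% and 53.4%. Windows 3 windows from a core averaged 66.2%, 63.5% and 64.8%, and windows 4 windows away 68.3%, 65.9% and 67.2%. The other windows as a whole averaged 56.4%, 51.1% and 53.6%. The outer edge windows were thus already close to the level of the other windows, while the inner ones were closer to the cores.

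These means hide 2 very different kinds of windows. At 1 window from a core the median was only 2.52% in parental cells, 1.95% in KO #1 and 2.44% in KO #2. Of these windows 65.2% were below 10% in parental cells, 67.3% in KO #1 and 66.1% in KO #2, and 7.40%, 6.23% and 6.82% were at 75% or above. Most inner edge windows were therefore a continuation of the unmethylated stretch. At 2 windows the medians were 65.5%, 59.95% and 61.1%, with 24.1%, 25.1% and 23.9% of windows below 10% and 44.0%, 42.1% and 43.2% at 75% or above. The 10th and 90th percentiles ran from 0.574% to 96.3% in parental cells, so outer edge windows spanned nearly the whole scale.

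**Figure D1:**
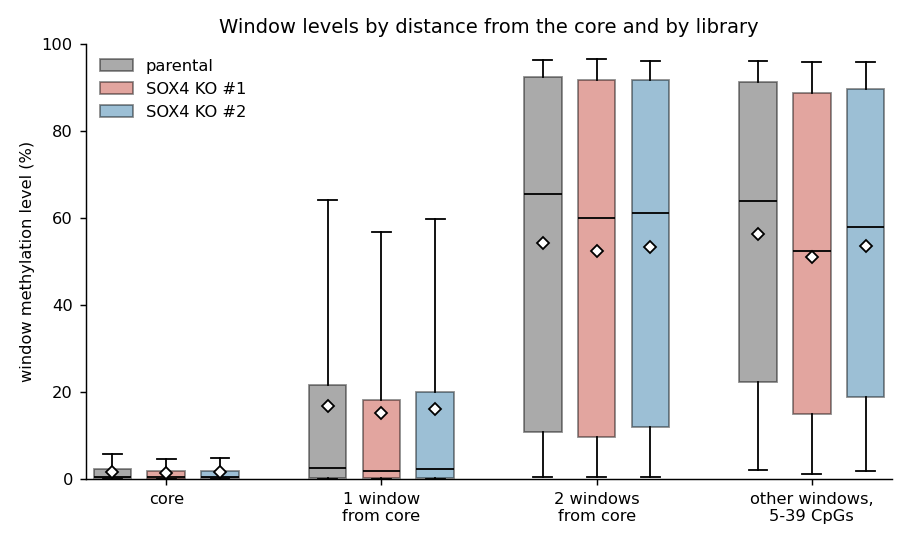
Methylation level (%) of 1 kb windows in parental cells, KO #1 and KO #2. Boxes span the quartiles with the median as a line, whiskers reach the 10th and 90th percentiles and diamonds mark the mean. The median at 1 window from the core is 2.52% or less in each library, and at 2 windows it is 59.95% or more.

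The level of an edge window was largely a property that the 3 libraries shared. Windows were put in 4 classes, below 10%, from 10% to 25%, from 25% to 75% and 75% or above. At 1 window, 87.3% of edge windows fell in the same class in all 3 libraries, and at 2 windows 85.3% did, against 77.9% of the other windows. At 3, 4 and 5 windows from a core the shares were 84.1%, 84.0% and 83.5%, close to that at 2 windows. In all 3 libraries 3760 inner edge windows were below 10% and 351 were at 75% or above. Only 3 of the 7579 edge windows were below 10% in parental cells and at 25% or above in both knockout lines, and 2 were at 25% or above in parental cells and below 10% in both lines.

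Read in steps of 100 bp from the border of the core, the level went from 5.10% in the first 100 bp to 30.5% at 901 to 1000 bp in parental cells. In KO #1 it went from 4.27% to 28.2%, and in KO #2 from 4.63% to 29.5%. At 1801 to 1900 bp the levels were 54.1%, 52.2% and 53.4%. The distance at which the profile passed the midpoint between the cores and the other windows of the same library was 797 bp in parental cells, 747 bp in KO #1 and 754 bp in KO #2. That midpoint was itself lower in the knockout libraries, at 26.3% and 27.6% against 29.1% in parental cells. At every one of these 100-bp steps KO #1 had the lowest level and parental cells had the highest. The first step rested on 28884 CpGs and the last on 1624.

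**Figure D2:**
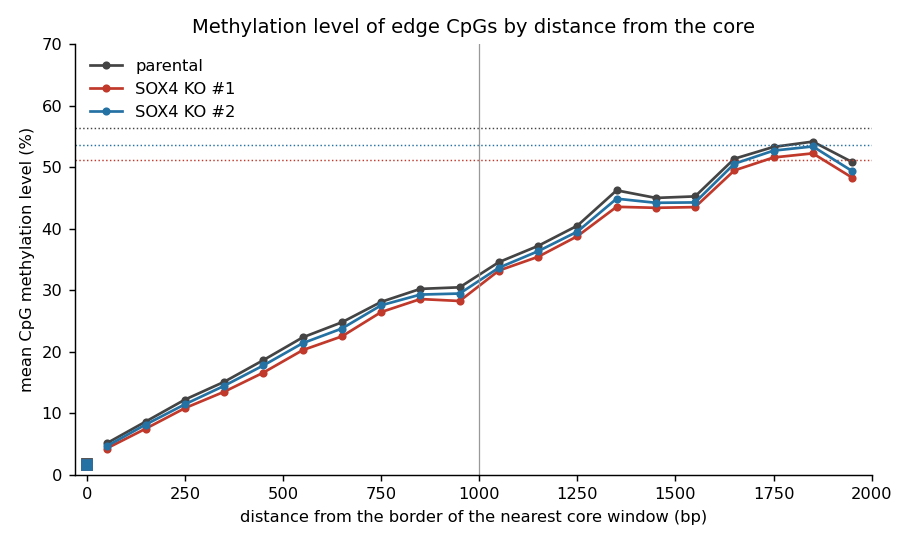
Mean methylation level (%) of edge CpGs against distance (bp) from the border of the nearest core window, in steps of 100 bp, for the 3 libraries. Squares at 0 give the mean of the core windows, dotted lines the mean of the other windows and the grey line the boundary between the inner and outer edge windows. The 3 profiles run side by side, with parental cells going from 5.10% in the first step to 54.1% at 1801 to 1900 bp.

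Edge windows with fewer CpGs were more methylated. At 1 window, parental means were 27.5% with 5 to 9 CpGs, 16.2% with 10 to 19, 10.9% with 20 to 29 and 8.91% with 30 to 39. At 2 windows they were 65.7%, 48.6%, 36.2% and 28.0% in the same order. The order was the same in KO #1, from 25.2% to 7.93% at 1 window and from 64.2% to 25.7% at 2 windows. CpG number was part of the rule, so this gradient describes windows within its limits.

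The knockout lines stood lower than parental cells in edge windows, by less than in the other windows. At 1 window the differences from parental cells were -1.65 percentage points in KO #1 and -0.751 points in KO #2, and KO #1 less KO #2 gave -0.900 points. The mean of the knockout lines was 15.7% ± 0.636 (SD, n = 2). At 2 windows the differences were -1.66 points, -0.834 points and -0.827 points, and the knockout mean was 52.9% ± 0.585 (SD, n = 2). KO #1 thus differed from parental cells by more than the knockout lines differed from each other, and KO #2 did so by less at 1 window and by about as much at 2 windows. In the other windows the differences were -5.28, -2.75 and -2.53 points. The smaller size was not limited to the edge windows. Windows 3, 4 and 5 windows from a core differed from parental cells by -2.76, -2.43 and -2.42 points in KO #1 and by -1.44, -1.13 and -1.24 points in KO #2. Windows near 0% or 100% have little room to differ, and the edge windows hold more of them. With the other windows weighted to the same mix of level and CpG number, the differences became -2.82 and -1.48 points for the mix at 1 window and -4.13 and -2.16 points for the mix at 2 windows. The edge windows remained nearer to parental cells in both lines, and that gap was not tested.

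Within single bands of level, edge windows differed less from parental cells than other windows did in the middle of the scale. Among windows averaging 25% to 50% over the 3 libraries, the difference in KO #1 was -5.54 points at 1 window, -3.01 points at 2 windows and -10.9 points in other windows. Between 50% and 75% the differences of KO #1 were -7.13, -5.30 and -11.0 points and those of KO #2 were -3.45, -3.16 and -5.70 points. Between 75% and 90% the inner edge windows, at -4.47 points, were close to the other windows, at -4.93 points. Above 90% all 3 kinds were within 0.484 points of parental cells in KO #1. By chromosome, the mean of the knockout lines was below parental cells on 22 of 22 autosomes at 1 window, from -1.93 points on chromosome 15 to -0.341 points on chromosome 8, and on 22 of 22 at 2 windows, from -2.54 points on chromosome 18 to -0.0482 points on chromosome 20. Each line alone was lower on 21 of 22 at 2 windows, with KO #1 higher by 0.583 points on chromosome 20 and KO #2 higher by 0.459 points on chromosome 5.

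**Figure D3:**
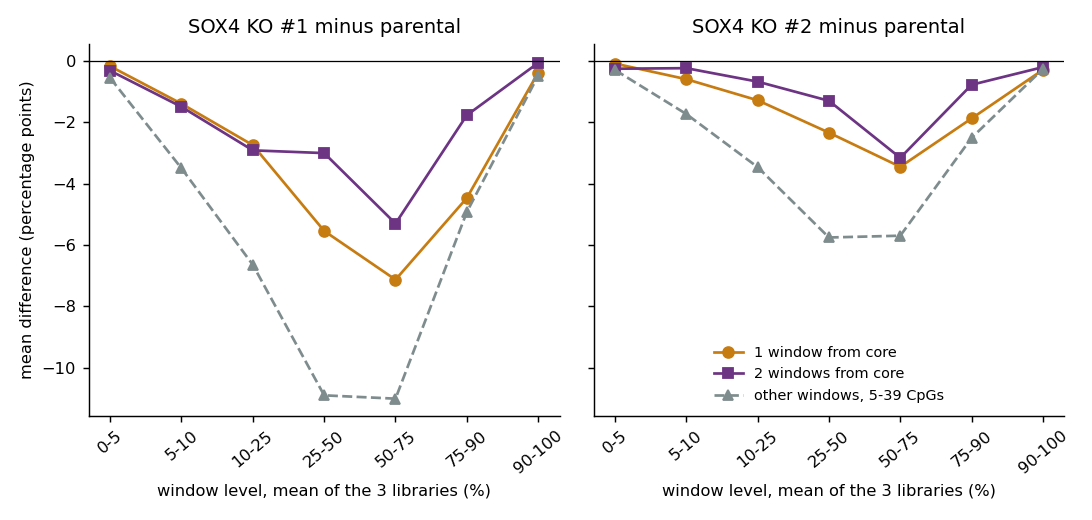
Mean difference from parental cells (percentage points) against window level (mean of the 3 libraries, %), for KO #1 (left) and KO #2 (right). Circles are windows 1 window from a core, squares 2 windows from a core and triangles the other windows. Between 50% and 75% the other windows reach -11.0 points in KO #1 and the edge windows -7.13 and -5.30 points.

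Single edge windows were then counted as called where a line differed from parental cells by 25 points or more, a size rule with no p-value. KO #1 had 32 edge windows higher, 0.422% of the 7579, against 0.459% of all 101259 windows of 5 to 39 CpGs. It had 108 lower, or 1.42%, against 4.56% of all windows. KO #2 had 3 higher, against 0.0997% of all windows, and 12 lower, or 0.158%, against 0.693%. Between the knockout lines 8 edge windows were higher in KO #1, against 0.127% of all windows, and 24 were lower, or 0.317%, against 0.855%. Both lines were higher in 2 edge windows, against 0.0751% of all windows, and lower in 12, or 0.158%, against 0.61%. Windows called lower were thus a smaller share of edge windows than of all windows in each of these comparisons. A window below 25% in parental cells cannot be called lower than them, and edge windows held more of these. In parental cells 56.6% of edge windows were below 10% and 11.1% from 10% to 25%, against 17.1% and 9.51% of the other windows. The part of starting level in the smaller shares was not tested. The share called higher in KO #1 was close to that of all windows only with both distances pooled. It was 0.251% at 1 window, with 15 windows, and 1.07% at 2 windows, with 17, against 0.462% of the other windows. Calls of both lines share the parental library.

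Single CpGs were compared between libraries with Fisher's exact test (2-sided) on their methylated and unmethylated read counts, adjusted by Benjamini-Hochberg over all 2238764 CpGs compared, and called at an adjusted p under 0.05 with a difference of 25 points. These calls compare libraries and not conditions. Of 126106 edge CpGs, 823 were higher in KO #1, or 0.653%, against 0.599% of all CpGs, and 2406 were lower, or 1.91%, against 4.46%. By distance, 0.527% at 1 window and 1.29% at 2 windows were higher in KO #1, against 0.734% in other windows. In KO #2, 140 were higher, or 0.111%, against 0.0831%, and 370 were lower, or 0.293%, against 0.713%. KO #1 was above KO #2 at 216 edge CpGs, or 0.171%, against 0.184%, and below it at 634, or 0.503%, against 1.07%. Both lines were higher at 101 edge CpGs, or 0.0801%, against 0.0581%, and lower at 313, or 0.248%, against 0.6%. Among CpGs of 25% to 50%, 2.46% at 1 window and 2.26% at 2 windows were lower in both lines, against 3.19% in other windows. In the same band 0.953% and 1.28% of edge CpGs were higher in both lines, against 0.371% in other windows. These edge shares rest on 43 CpGs at 1 window and 21 at 2 windows. Neighbouring CpGs share reads, so their calls are not independent, and a few windows can hold many of them.

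The edge windows with the largest difference in both lines, ranked by the smaller of the differences, are given next. Their values chose them, so they are a description. The first of the higher windows lay 2 windows from the 3 cores that hold the start of JAG1, whose upstream sequence is given above, on the side into which the gene is transcribed (chr20:10651001-10652000). The 11 CpGs there averaged 3.19% in parental cells, 78.9% in KO #1 and 36.6% in KO #2. Of the reads, 12 of 413 were methylated in parental cells (2.91%, 95% interval 1.51% to 5.02%), 195 of 259 in KO #1 (75.3%, 69.6% to 80.4%) and 212 of 584 in KO #2 (36.3%, 32.4% to 40.3%). The 3 libraries did not overlap in these intervals, and KO #1 was above KO #2 by 42.3 points. By the Fisher exact test 9 of the 11 CpGs were higher in KO #1 than in parental cells, 6 were higher in KO #2 and 6 were higher in KO #1 than in KO #2. The window between it and the core (chr20:10652001-10653000, 24 CpGs) averaged 0.169%, 2.20% and 1.05%, with 0 CpGs called, and the JAG1 cores were at 0.484% or less in each library. In that inner window the 4 CpGs from 751 to 1000 bp averaged 0.431%, 12.1% and 4.80%, and the 18 CpGs in the first 250 bp stayed at 0.335% or less. The libraries thus separated only toward the far end of the flank.

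The second, beside a core with no placed gene start (chr11:70246001-70247000, 8 CpGs), averaged 21.4% in parental cells, 63.4% in KO #1 and 47.1% in KO #2. The inner window of the same flank (chr11:70245001-70246000, 24 CpGs) averaged 5.60%, 20.7% and 21.1%, and 8 of its CpGs were called higher in each line. Here both windows of the flank were higher in both lines. The third lay beside the core of BAIAP2L1, which encodes a protein linking membranes and actin (chr7:98029001-98030000, 5 CpGs), at 42.7%, 98.2% and 67.6%. It rested on 190, 64 and 93 reads. The fourth lay beside the cores of ADGRF3, an adhesion G protein-coupled receptor, and SELENOI, an enzyme of phospholipid synthesis (chr2:26570001-26571000, 6 CpGs), at 25.4%, 52.8% and 50.2%. The fifth (chr15:44954001-44955000, 6 CpGs) averaged 8.36%, 33.0% and 34.2%, with 2 CpGs called higher in each line.

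The first of the lower windows had the fewest reads of the 5 (chr10:81206001-81207000, 6 CpGs). It averaged 92.7% in parental cells, 52.4% in KO #1 and 51.5% in KO #2 on 68, 63 and 88 reads, and 0 of its CpGs passed the test. The window beside the core of ZNF611, a zinc finger gene (chr19:53239001-53240000, 10 CpGs), averaged 69.3%, 32.8% and 33.9%, and 5 of 10 CpGs were lower in each line. Both lines stood together there, 1.10 points apart. The third (chr1:90100001-90101000, 6 CpGs) averaged 94.2%, 30.4% and 60.03%, and across the same run of cores the window on the other side (chr1:90097001-90098000, 10 CpGs) averaged 81.4%, 45.2% and 62.1%. This was a run with both sides lower in both lines.

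The fourth was the best covered. It lay on the far side of a core from the start of CYP1A1 (chr15:75019001-75020000), upstream of that gene, and held 35 CpGs on 2606, 2909 and 3451 reads. It averaged 88.3% in parental cells, 21.8% in KO #1 and 54.9% in KO #2. CpGs in parental cells ranged from 52.4% to 98.2%, those in KO #1 from 4.64% to 46.7% and those in KO #2 from 27.5% to 73.8%. By the Fisher exact test all 35 CpGs were lower in KO #1, 23 were lower in KO #2 and 24 were lower in KO #1 than in KO #2. The core between the window and the gene averaged 2.14%, 0.290% and 0.598%. On the gene side the edge window that holds the CYP1A1 start (chr15:75017001-75018000, 5 CpGs) averaged 5.17%, 4.25% and 7.93%. Farther upstream the next edge window (chr15:75020001-75021000, 5 CpGs) averaged 97.0%, 89.5% and 91.1%. The wide gap between the libraries thus lay mostly in 1 window, with a low window and a high window on its 2 sides. It reached a little way into the core, where the 31 CpGs within 250 bp of the border averaged 5.06% in parental cells, 0.161% in KO #1 and 1.17% in KO #2. The fifth (chr20:18036001-18037000, 10 CpGs) averaged 67.3%, 23.5% and 34.3%, while the windows across its core were at 4.07% or less in all 3 libraries.

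**Figure D4:**
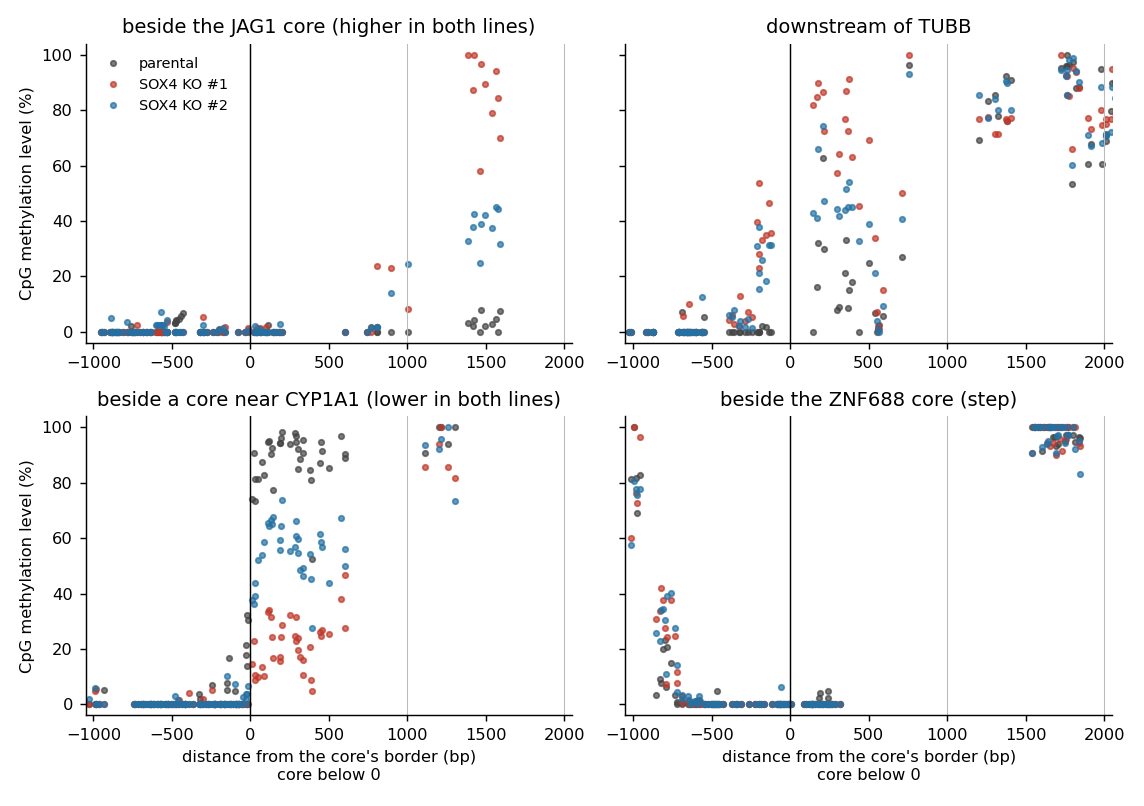
Methylation level (%) of single CpGs against distance (bp) from the border of the core, with the core at negative distances, in the 3 libraries. The panels show the flanks beside JAG1, TUBB, the core near CYP1A1 and ZNF688. Beside JAG1 the knockout lines are furthest from parental cells beyond 1000 bp, near CYP1A1 the 3 libraries are apart in the window next to the core, and beside ZNF688 they coincide in the flank but not at the far end of the core.

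The shape of a flank was shared by the libraries to a high degree. In 935 flanks both the inner and the outer window were edge windows. The outer window was the higher one in 751 of them in parental cells, 734 in KO #1 and 744 in KO #2, and in 670 in all 3 libraries. In 109 flanks it was the lower one in all 3. The mean step outward was 30.9 points in parental cells, 30.5 in KO #1 and 30.6 in KO #2, and steps of 25 points or more were found in 430, 433 and 428 flanks, 396 of them in all 3 libraries. Across the 935 flanks the step in parental cells correlated with that in KO #1 at r = 0.966 and with that in KO #2 at r = 0.987, and the steps of the knockout lines at r = 0.984. These flanks share CpG positions and capture probes between the libraries, so r describes their likeness without a test.

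The steepest flanks with at least 10 CpGs in each window were ranked by the smallest step over the 3 libraries. They went from nearly 0% to nearly 100% in each library. The choice fixed this likeness of the libraries in advance, so it is not a result. Beside the core of ZNF688, a zinc finger gene, the inner window (chr16:30582001-30583000, 22 CpGs) averaged 0.604%, 0% and 0%, and the outer one (chr16:30581001-30582000, 27 CpGs) 98.0%, 97.6% and 96.9%. A flank with no placed start nearby (chr17:44848001-44849000) went from 0.860%, 0.659% and 0.473% to 97.7%, 98.0% and 97.6%. The inner window holding the LSM12 start shown above (chr17:42144001-42145000, 17 CpGs) averaged 0.160%, 0.159% and 0.125%, and the next one (chr17:42145001-42146000, 10 CpGs) 96.8%, 96.9% and 97.0%. Beside SNX8, a sorting nexin gene (chr7:2353001-2354000), the levels went from 0.411%, 0.526% and 0.452% to 97.1%, 97.0% and 96.5%. Beside ZFP62, a zinc finger gene (chr5:180287001-180288000), all 12 inner CpGs had 0 methylated reads of 699, 721 and 960, with upper bounds of the exact 95% interval at 0.526%, 0.510% and 0.384%, and the outer window averaged 96.0%, 96.9% and 97.6%.

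In each of these 5 flanks the step fell in a stretch without compared CpGs. The last low CpG and the first CpG at 50% or above in all 3 libraries lay 1226 bp apart beside ZNF688, 926 bp apart in the second flank and 972 bp apart beside LSM12. They lay 1067 bp apart beside SNX8 and 1503 bp apart beside ZFP62. How abrupt the change is within those stretches was not measured.

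A few flanks ran the other way, and the 3 given here were ranked by the same rule for the step inward. Beside the cores of KDM5B, which encodes a histone H3 lysine 4 demethylase, the inner window (chr1:202778001-202779000, 14 CpGs) averaged 84.2%, 78.6% and 78.7% and the outer one (chr1:202779001-202780000, 10 CpGs) 0.370%, 1.05% and 0%. The nearest placed start to the outer window was that of PCAT6, a long non-coding RNA. On chromosome 8 (chr8:144652001-144653000, 23 CpGs) the inner window averaged 81.4%, 75.1% and 79.5% and the outer one 0.383%, 1.18% and 0%. The window holding the STPG1 start (chr1:24741001-24742000, 24 CpGs) averaged 57.2%, 46.0% and 52.6%. It lay between a core and an outer window (chr1:24740001-24741000) at 3.89%, 2.76% and 3.38%, and placed starts of NIPAL3 lay on both sides of it. In these 3 flanks the inner window was a methylated stretch between 2 low ones in all 3 libraries.

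Among 48 runs of cores with inner and outer edge windows on both sides, the 3 longest differed from each other. The longest, with 198 CpGs, held TGIF1, a homeodomain repressor of TGF-beta signalling (chr18:3449001-3452000), and its 4 edge windows averaged between 0% and 10.6% in all 3 libraries. A run with 146 CpGs (chr11:3443001-3445000) had edge windows between 9.84% and 40.6% in parental cells. A run with 121 CpGs (chr17:80055001-80057000) had 4 edge windows between 85.6% and 97.5% in parental cells, between 68.2% and 96.5% in KO #1 and between 79.8% and 98.3% in KO #2. Inner edge windows beside runs of 2 cores averaged 25.2% in 455 windows in parental cells, against 16.2% in 5481 windows beside a single core and 19.8% in 48 windows beside runs of 3 or more.

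The 2 sides of a core were often unlike each other. Because the borders are lines of a fixed grid, an unmethylated stretch can lie off-centre in its core. That and a difference between the flanks themselves cannot be told apart here. In 1285 runs with an inner edge window on both sides, the levels of the sides did not go together, at r = -0.0231 in parental cells, -0.0334 in KO #1 and -0.0267 in KO #2. The sides were 25 points or more apart in 502, 468 and 496 runs, and in 429 runs this held with the same side higher in all 3 libraries. One side was below 10% and the other at 25% or above in 417, 402 and 421 runs. Both sides were below 10% in about as many runs, 487, 515 and 496. The runs with sides far apart were thus mostly lopsided in the same way in the parental and the knockout lines.

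To locate the border within a flank, the first CpG was taken from which 5 CpGs in a row averaged 50% or more. Such a border was found in 562 of 935 flanks in parental cells, 559 in KO #1 and 553 in KO #2, at a median of 365.5, 381 and 377 bp from the core. In 526 flanks it was found in all 3 libraries. It lay at the same CpG in KO #1 as in parental cells in 305 of these, or 58.0%, farther from the core in 167 and nearer in 54. KO #2 had the same CpG in 358, a farther one in 121 and a nearer one in 47. Between the knockout lines, 356 were the same, 118 were farther in KO #1 and 52 nearer. The mean shift was 51.0 bp for KO #1 (SD over flanks 255 bp), 29.4 bp for KO #2 (SD 207 bp) and 21.6 bp for KO #1 against KO #2. Shifts of 100 bp or more were outward in 62 and inward in 16 flanks for KO #1, 38 and 9 for KO #2, and 32 and 14 between the knockout lines. Most borders lay at the same CpG, and the others lay more often farther out in the knockout lines. Between KO #1 and KO #2 the balance of these larger shifts turned with a border of 3 CpGs, at 28 outward and 29 inward. The 50% cut was the same in all libraries, and levels were lower in the knockout lines. With a midpoint set per library, as above, the distance was instead 797 bp in parental cells, 747 bp in KO #1 and 754 bp in KO #2. Those midpoints were 29.1%, 26.3% and 27.6%. At every 100-bp step of the profile parental cells had the highest level. The order of the libraries thus differed between a shared cut and a cut set per library, and this was not tested further. Spacing of compared CpGs limits how finely a border can be placed. The CpG taken can itself be low, since only the mean of the 5 reaches the cut. Beside ZNF688 the border lay at 283 bp in all 3 libraries. The first CpG there at 50% or above in all 3 lay at 1540 bp.

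Gene starts were then used to tell the 2 sides of a core apart. Starts of RefSeq promoters were placed on the files by the spacing of their CpGs, and 3870 of 6283 runs of cores, or 61.6%, held at least 1. Another 1040 placed starts lay in edge windows, 944 of them at 1 window. The 804 inner edge windows with a start averaged 7.95% in parental cells, 7.03% in KO #1 and 7.51% in KO #2. The 5180 inner windows without a placed start averaged 18.3%, 16.5% and 17.5%. At 2 windows, the 85 with a start averaged 18.9%, 17.9% and 18.1%, and the 1510 without one 56.2%, 54.5% and 55.3%. Edge windows with a start thus had a much lower mean level than those without, and they also held more CpGs, 24.0 against 16.6 a window at 1 window. The part of CpG number in this gap was not tested.

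In the 2883 runs whose placed starts lie on 1 strand, the inner edge window was more methylated upstream of the start than downstream, and the outer one less. At 1 window, 1318 upstream windows averaged 20.5% in parental cells, 18.1% in KO #1 and 19.3% in KO #2. The 1371 downstream windows averaged 14.0%, 13.1% and 13.6%. At 2 windows, 272 upstream windows averaged 49.9%, 47.2% and 48.5%, and 330 downstream windows 65.7%, 65.6% and 65.6%. Downstream, the inner windows were thus lower and the outer ones higher than upstream. In 550 runs with an inner edge window on both sides the mean was 3.07 points higher upstream in parental cells, 1.28 in KO #1 and 1.96 in KO #2. The median distance from the start to the border of the core was 411 bp upstream and 584 bp downstream in these runs, so the inner window lay nearer to the start on the upstream side. Upstream less downstream was also read by CpG number, in the order parental cells, KO #1 and KO #2. It was 11.8, 10.8 and 10.3 points in the 60 such runs with 5 to 9 CpGs in both windows. With 10 to 19 CpGs in both, 70 runs gave 7.53, 5.47 and 6.27 points. With 20 to 39 CpGs in both, 52 runs gave -1.31, -2.61 and -1.76 points.

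The differences from parental cells also followed the side. Upstream, the differences were -2.42 points in KO #1 and -1.17 points in KO #2 at 1 window, and -2.72 and -1.40 points at 2 windows. Downstream, the differences were -0.915 and -0.387 points at 1 window and -0.106 and -0.102 points at 2 windows. Upstream windows were thus further below parental cells in both lines. KO #1 against KO #2 gave -1.249 points upstream and -0.528 points downstream at 1 window. The order of the sides was the same within bands of level at 1 window. Among windows of 10% to 50%, the difference in KO #1 was -4.94 points upstream and -2.59 points downstream, and among those of 50% to 90% it was -7.56 and -4.74 points. At 2 windows the same bands gave -5.51 against 0.756 points and -5.06 against -0.982 points. In KO #2 these bands gave -2.26 against -1.02 and -4.08 against -1.94 points at 1 window, and -2.55 against 1.23 and -2.66 against -0.221 points at 2 windows. Outer windows near the ends of the scale were exceptions. Those below 10% had -0.593 points upstream and -0.707 points downstream in KO #1 and -0.314 and -0.320 points in KO #2, and those above 90% had -0.285 and -0.423 points in KO #2.

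**Figure D5:**
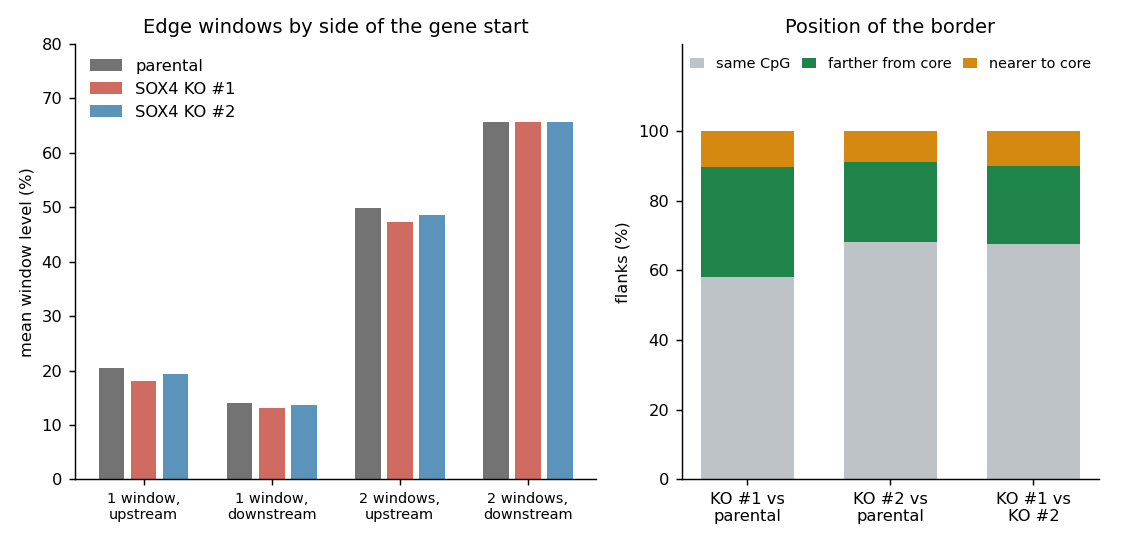
Left, mean level (%) of edge windows upstream and downstream of the gene start, 1 or 2 windows from the core, in the 3 libraries. Right, share of 526 flanks (%) in which the border lay at the same CpG, farther from the core or nearer to it in the first-named library. Bars of the downstream outer windows are level at 65.7%, 65.6% and 65.6%, and the share with the same CpG is lowest for KO #1 against parental cells, at 58.0%.

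Genes of 5 lists were looked up among the cores with a placed start. Of 7 genes named by the study, 6 were placed, 2 had a start in a core and 1 had an edge window. That one was MTHFD2, a mitochondrial enzyme of one-carbon folate metabolism, whose downstream window (chr2:74426001-74427000, 29 CpGs) averaged 0.164% in parental cells, 0.841% in KO #1 and 0.0862% in KO #2. No CpG of that window was called. The MTHFD2 core averaged 9.71%, 7.97% and 10.5% in the same order, near the 10% limit and above the edge window. The STAT6 interval that the study plotted lies in 2 windows (chr12:57504001-57505000 and chr12:57505001-57506000). Neither was an edge window, since the nearest core was 22 windows from the first and 23 from the second. Liver transcription factors had 3 of 9 and DNA methylation enzymes 6 of 8 genes placed, and neither list had a start in a core.

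Of 8 housekeeping genes, 6 were placed and 4 had 8 edge windows between them, of which 4 were below 10% in parental cells. The inner upstream window of TBP, the TATA-binding protein (chr6:170861001-170862000), averaged 0.118%, 0.260% and 0.388%, and the outer one (chr6:170860001-170861000) 89.7%, 85.6% and 91.1%. PPIA, a prolyl isomerase, had a downstream window (chr7:44837001-44838000) at 1.28%, 2.74% and 2.24%. RPLP0, a ribosomal protein, had its downstream window (chr12:120637001-120638000) at 74.8%, 66.2% and 83.2% and its upstream one (chr12:120639001-120640000) at 2.67%, 1.63% and 4.24%. No CpG of these windows was called, and RPLP0 is 1 of the runs with unlike sides.

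TUBB was singled out after its values were seen. Its upstream window (chr6:30687001-30688000, 7 CpGs) averaged 0.115% in parental cells and 0% in both knockout lines. The inner downstream window (chr6:30690001-30691000, 21 CpGs) averaged 19.9% in parental cells, 59.6% in KO #1 and 39.9% in KO #2 on 1715, 1650 and 1989 reads. By the Fisher exact test 14 of its CpGs were higher in KO #1, 6 were higher in KO #2 and 5 were higher in KO #1 than in KO #2. Its 5 CpGs in the first 250 bp from the core averaged 28.2%, 83.2% and 54.2%, the next 8 averaged 14.1%, 69.7% and 44.9%, and the 7 CpGs between 501 and 750 bp averaged 9.72%, 25.5% and 16.5%. The outer window (chr6:30691001-30692000, 20 CpGs) was at 83.6%, 81.6% and 84.6%. The difference did not stop at the border of the core. The 9 core CpGs within 250 bp of it averaged 0.423% in parental cells, 33.4% in KO #1 and 23.8% in KO #2, and the 2 core windows as a whole averaged 0.460%, 4.07% and 2.98%. In this flank the libraries were furthest apart in the first 500 bp, and beside JAG1 they were furthest apart in the outer window.

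The 3 edge windows of tumour suppressor genes were also named after their values were seen. CDKN2A, which encodes inhibitors of the cell cycle, had a downstream window (chr9:21994001-21995000) at 0% in all 3 libraries on 111, 103 and 141 reads, with upper bounds of the exact 95% interval at 3.27%, 3.52% and 2.58%. Its upstream window (chr9:21996001-21997000, 6 CpGs) averaged 1.92%, 19.8% and 5.56% on 114, 75 and 70 reads. APC, a negative regulator of Wnt signalling, had an upstream window (chr5:112042001-112043000, 7 CpGs) at 23.7%, 11.4% and 21.9%. No CpG of these windows was called.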

How the data were processed

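Per the labels and the study's methods, 500 ng of genomic DNA per library was sheared, captured with EPIC probes, bisulfite-converted, amplified and sequenced on a NovaSeq instrument. The deposited files give, for both cytosines of a CpG, 1 per strand, raw counts of reads in CpG context and of methylated reads, and the authors' methylation level as a fraction, which equalled the quotient of the 2 counts. The submitters' processing notes name GRCh37 and hg19. The aligner, the caller, the filters and the treatment of PCR duplicates are not given in the sources used here, and duplicates left in would make depths look larger than the molecules behind them.

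Here the reads of both strands of a CpG were summed, and a CpG was given the forward-strand position of its G. A CpG was kept where each library had 10 or more reads on it. A window level is the mean over its CpGs. Fisher exact tests, with Benjamini-Hochberg adjustment over 2238764 CpGs, were computed by code written for this purpose. The tests were checked against scipy 1.17.1 on simulated counts. Python 3.11.15 was run with pandas 2.3.3, numpy 2.4.6, numba 0.67.0 and matplotlib 3.10.9. Tests and window rules were tested on simulated data. Median depth over all covered CpGs was 22 reads in parental cells, 20 in KO #1 and 27 in KO #2, and 87.0%, 86.8% and 86.7% of reads lay on the reverse strand.

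No annotation of the files' build was used. Of 35116 RefSeq promoter sequences (GRCh38.p14), 21319 had at least 8 CpGs and 15315 matched the files at 1 position by the spacing of their CpGs. Of these, 99.4% matched the chromosome and strand of the table. No coordinate of the table was used, and genes not placed were not analysed here. This placement was chosen after the files had been seen. It let the gene lists be used, which the design had tied to an annotation.

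The edge windows and gene lists were chosen with earlier results of these data known. The alternatives tried were the coverage minimum, the limits of core and edge windows, 1 strand alone, thinning to equal depth, the size and p of a call, the rule for a border and leaving out a line. Named windows are the 5 largest rises and falls in both lines, the 5 steepest flanks outward and 3 inward, the 3 longest runs of cores, the windows of the STAT6 interval, and the first 5 windows of the gene lists in list order.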

Additional observations from a re-analysis of the deposited data

How the results depend on the processing

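The sign of the differences held in all but 1 of 171 alternative values of signed differences. The exception was the share of borders moved outward less that moved inward by 100 bp or more between KO #1 and KO #2, at -0.179 percentage points with a border of 3 CpGs, and its cause was not tested. No paired analysis was possible because only 1 parental library exists to pair with 2 knockout libraries. Without 1 of the knockout lines the knockout difference ranged from -1.65 to -0.751 points at 1 window and from -1.66 to -0.834 points at 2 windows. Calls in both lines become calls in 1 line when the other is left out, so by construction the windows higher ranged from 3 to 32, the windows lower from 12 to 108, the CpGs higher from 140 to 823 and the CpGs lower from 370 to 2406.

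With a coverage minimum of 5 reads the mean over the 3 libraries was 17.8% at 1 window and 58.8% at 2 windows, the half-rise distance was 712 bp, 80.9% of flanks were higher outward, 41.5% of runs had sides 25 points apart, and 6 windows were higher in both lines. With a minimum of 20 reads these were 12.5%, 43.2%, 989 bp, 77.04% and 32.8%, and 7 windows and 194 CpGs were lower in both lines. The chosen settings gave 16.1%, 53.4%, 766 bp, 79.5%, 38.0%, 2 windows higher, 12 windows lower, 101 CpGs higher and 313 CpGs lower. With cores below 5% the levels were 14.9% and 54.6%, the half-rise distance 793 bp and the share of runs with unlike sides 35.6%. With cores below 20% they were 17.5%, 52.6%, 751 bp and 40.01%, and 77.2% of flanks were higher outward. Cores of 30 or more CpGs gave 18.0%, 57.4%, 649 bp, 78.2% of flanks and 41.2% of runs. Cores of 50 or more gave 14.8%, 48.6%, 984 bp, 78.1% and 36.4%. Edge windows of 10 or more CpGs gave 12.2%, 40.5%, 737 bp, 76.2% and 29.1%, with 1 window higher and 6 lower in both lines. The half-rise distance was 758 bp with cores chosen in parental cells alone, 746 bp without windows near cores on both sides and 696 bp with windows shifted by 500 bp. Forward-strand reads alone covered 159 outer windows, with a level of 57.2% and a knockout difference of -2.03 points, against -1.49 points with both strands in the same windows. Thinning to equal depth left 4 windows higher, 47 CpGs higher and 149 CpGs lower in both lines. A size of 10 points called 75 windows higher and 210 lower, and a size of 50 points called 0 and 0 windows and 3 and 44 CpGs. An adjusted p under 0.01 by the Fisher exact test left 65 CpGs higher and 158 lower. Depth limits the windows of few CpGs most, and those on fewer than 100 reads in a library carry wide intervals.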

Other observations

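Windows next to cores that the choice of edge windows left out gave the following values. Dense windows of 40 or more CpGs with a mean level of 10% or more lay 1 window from a core in 231 cases and averaged 32.4% in parental cells, 29.6% in KO #1 and 31.0% in KO #2. Another 51 lay 2 windows away and averaged 53.3%, 51.4% and 52.0%. Sparse windows of 1 to 4 CpGs averaged 35.5%, 32.7% and 34.3% in 1813 windows at 1 window, and 74.5%, 72.0% and 73.5% in 2005 windows at 2 windows.

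Close to the limits of the choice, the 627 edge windows with 5 CpGs averaged 48.4% in parental cells, and the 793 windows with 4 CpGs at the same distances 55.3%. The 91 edge windows with 39 CpGs averaged 8.88%, and the 17 windows with 40 CpGs that were not core 32.4%. Cores with a mean level from 9% to 10% numbered 111 and averaged 10.2%, 8.85% and 9.37% in the 3 libraries, and 99 dense windows from 10% to 11% averaged 11.4%, 9.64% and 10.5%.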
